A study of Mus musculus with 4 samples.

Results

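Oligodendrocyte precursors and newly formed oligodendrocytes were sought in single-nucleus RNA counts of mouse brain by a rule on marker counts, which selected 858 of the 52132 nuclei kept by the study's filters. A nucleus met the precursor rule with at least 3 unique molecular identifiers (UMIs, each marking a captured transcript) and 2 genes detected among *Pdgfra*, *Vcan*, *Cspg4*, *Cacng4*, *Lhfpl3* and *Stk32a*. It met the newly formed rule with the same counts among *Enpp6*, *Bcas1*, *Bcas1os2*, *Tns3* and *9630013A20Rik*. Both rules also asked for at most 2 UMIs of *Snap25* and *Rbfox3* together, which mark neurons, and for no UMI of *Vtn*, *Rgs5*, *Flt1*, *Slc17a7*, *Gad1* or *Gad2*, which mark vascular cells and neurons. The precursor rule alone was met by 253 nuclei, the newly formed rule alone by 572, and both rules by 33. The brains came from 2-month-old female mice of the C57/BL6 strain, wild type (WT) or heterozygous for *Csf1r* (*Csf1r*+/-, HET). The HET mice lack an allele in the germline, so the loss is in every cell and not in microglia alone. Nuclei were isolated without detergent from perfused brains and depleted of myelin debris. Of each genotype 2 libraries were analysed, the design text giving 2 mice per genotype, and the other library that the study made per genotype was not used here. The study asked how reduced CSF-1R signaling in microglia affects other brain cells before disease appears.

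Oligodendrocyte precursors are glial progenitors that divide in response to platelet-derived growth factor through the receptor encoded by *Pdgfra*, and they carry the proteoglycan NG2 (*Cspg4*). When a precursor leaves the cycle it switches off *Pdgfra*, passes through a short-lived stage marked by *Gpr17*, *Enpp6*, *Bcas1*, *Itpr2* and *Tns3*, and then turns on myelin genes such as *Mog* and *Mag*. *Sox10*, *Olig1* and *Olig2* encode transcription factors that are present throughout the lineage, while *Sox5* and *Sox6* encode factors that hold precursors back from differentiation.

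In most nuclei of the precursor rule alone, *Pdgfra* and *Cspg4* were not detected. Among the 253 nuclei of the precursor rule alone, *Lhfpl3*, a gene of the rule that neurons also transcribe, was detected in 98.0%, but *Pdgfra* in only 17.4% and *Cspg4* in 7.51%. Genes outside the rule gave the same picture, with *Sox10* in 9.88% and *Olig2* in 1.98% of these nuclei. *Meg3*, a long noncoding RNA abundant in neurons, stood at 9700 CPM (the counts-per-million scale, on which the UMIs of a gene are divided by the UMIs summed over the nuclei). The corresponding *Meg3* level was 7531 CPM in 10915 reference neuron nuclei, defined by at least 3 UMIs of *Snap25* and *Rbfox3* and at least 3 of *Slc17a7*, *Gad1* and *Gad2*. *Lhfpl3* itself was detected in 65.1% of those neurons. Median depth was 3164 UMIs in the precursor-rule nuclei and 9409 UMIs in the reference neurons.

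The 572 nuclei of the newly formed rule alone looked like mature oligodendrocytes by *Mog* and *Mag*. *Bcas1* was detected in 95.6% and *Enpp6* in 54.7% of them, both used by the rule. *Mog* was detected in 84.4% and *Mag* in 83.9%. In 1267 reference nuclei chosen by mature myelin genes under the same exclusions, *Mog* was detected in 77.0% and *Mag* in 79.6%. Nuclei that met either rule were left out of this reference, so its *Bcas1* and *Enpp6* were limited by its definition. *Itpr2*, a calcium channel gene of the intermediate stage, was detected in 6.99% of the newly formed-rule nuclei and in 3.55% of the mature reference, below the 7.70% of the neurons. *Gpr17* was detected in 0.874% against 0.0789%. Median depth was 2496 UMIs in the newly formed-rule nuclei and 1747 UMIs in the mature reference.

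The 33 nuclei that met both rules held transcripts of precursors and of the stage that follows. *Pdgfra* was detected in 51.5%, *Cspg4* in 39.4% and *Bcas1* in all of them. Of genes outside the rules, *Sox6* was detected in 87.9%, *Ptprz1*, a receptor-type phosphatase of precursors, in 84.8%, *Itpr2* in 69.7%, *Gpr17* in 33.3%, *Neu4*, a sialidase gene, in 30.3% and *Mog* in 18.2%. The reference neurons and mature nuclei give the background of free RNA, which reaches every droplet: *Pdgfra* was detected in 0.421% and 0.474% of them, *Gpr17* in 0.165% and 0.0789%, and *Neu4* in 0.128% and 0.0789%. In the clustering described below, 20 of the 33 nuclei fell in subcluster 5, which was precursor-like. Another 10 fell in subcluster 6, which was newly formed oligodendrocyte-like. The median depth of the 33 nuclei was 2931 UMIs. WT libraries 1 and 2 gave 4 and 23 of them, and HET libraries 1 and 2 gave 6 and 0, so the shares rest mainly on WT library 2. These shares describe the nuclei, since membership itself was set by counts of the rule genes in the same nuclei.

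**Figure D1:**
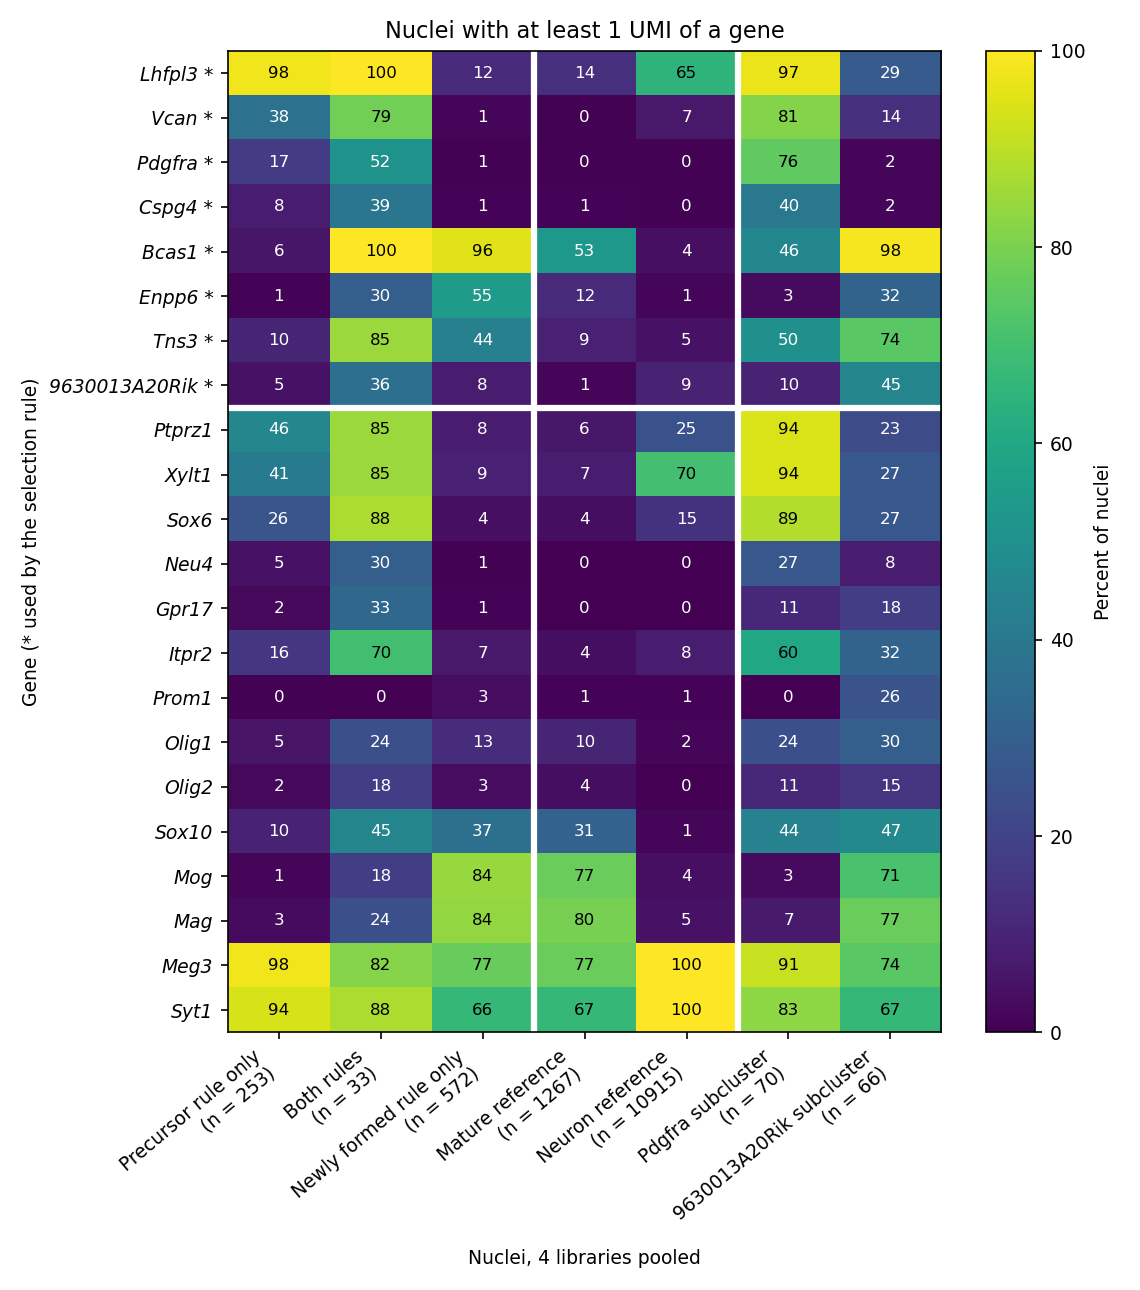
Percent of nuclei with at least 1 UMI of each gene (rows; an asterisk marks genes used by the selection rule) in the 3 selected sets, 2 reference sets and 2 subclusters (columns, nuclei of the 4 libraries pooled). The column for the precursor rule alone is low for *Pdgfra* (17.4%) and high for *Meg3* and *Syt1*, like the neuron reference, and the column for the newly formed rule alone matches the mature reference for *Mog* and *Mag*.

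The rule's exclusions also removed most nuclei with at least 2 *Pdgfra* UMIs. Of the 5672 nuclei that reached the marker counts, 4814 failed an exclusion. At least 2 *Pdgfra* UMIs were found in 114 nuclei, of which 38 were members and 70 failed an exclusion. Of those 70, 49 held more than 2 UMIs of *Snap25* and *Rbfox3*, 53 held *Slc17a7*, *Gad1* or *Gad2*, and 10 held *Vtn*, *Rgs5* or *Flt1*. *Ptprz1* was detected in 81.4% of the excluded nuclei and in 89.5% of the 38 members, and *Sox10* in 35.7% and 44.7%. The 70 excluded nuclei held 555006 UMIs in all and the 38 members 103864, so the excluded nuclei were deeper. These shares were not compared at equal depth, and whether the excluded nuclei were doublets was not tested. The remaining 6 nuclei passed the exclusions without reaching the marker counts, of which 66.7% held *Dcn*, a gene of fibroblasts, and none *Ptprz1* or *Sox10*. At the border of the precursor rule, *Pdgfra* was detected in 7.84% of the 51 nuclei with exactly 3 marker UMIs and in 5.33% of the 75 nuclei with 2. At the border of the newly formed rule, *Enpp6* was detected in 42.0% of the 205 nuclei with exactly 3 marker UMIs and in 36.9% of the 217 nuclei with 2.

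The members fell into 9 subclusters when they were clustered without the genes of the rule, and the subclusters are named here by their leading genes. Subclusters 1 (*Slc5a11*, *Anln*, 272 nuclei), 2 (*Il33*, *Ptgds*, 160) and 7 (*Nid1*, *Tmprss5*, 58) held 85.1% of the nuclei of the newly formed rule alone, with *Mog* in 83.8 to 87.9% of their nuclei. Subclusters 3 (*Tfap2d*, *Foxp2*, 120), 4 (*Ebf2*, *Rmst*, 80) and 9 (*Vav3*, *Ntng1*, 14) held 79.8% of the nuclei of the precursor rule alone. There 16, 13 and 11 of the 20 neuron markers reached the marker criterion, which asked for detection in 10% or more of the nuclei and a level 2 times that of the other members or higher. Subcluster 8 (*Inpp5d*, *C1qc*, 18 nuclei) met 14 of 15 microglia markers. Subcluster 5, led by *Pdgfra*, held 70 nuclei, and subcluster 6, led by *9630013A20Rik*, held 66. Subclusters 5 and 6 together made up 136 nuclei, 15.9% of the selection.

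WT library 1 stood apart from the other libraries. It gave 57 of the 58 nuclei of subcluster 7 and 86 of the 120 nuclei of subcluster 3. It gave none of the 80 nuclei of subcluster 4, so that 0 of its 16114 nuclei allows a share of up to 0.0186% by 3 counts and 0.0229% by the exact Clopper-Pearson interval. It also gave only 3 of the 272 nuclei of subcluster 1. Before clustering, each gene was centred and scaled within its library, so the split into subclusters also depends on the make-up of each library. The part of this step in these counts was not tested. WT library 2 and both HET libraries gave 134, 76 and 59 nuclei to subcluster 1 and 28, 28 and 24 to subcluster 4. No cell barcode of a member was shared between libraries. The counts of genotype calls and the changes of the main genes below are therefore also given without WT library 1.

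**Figure D2:**
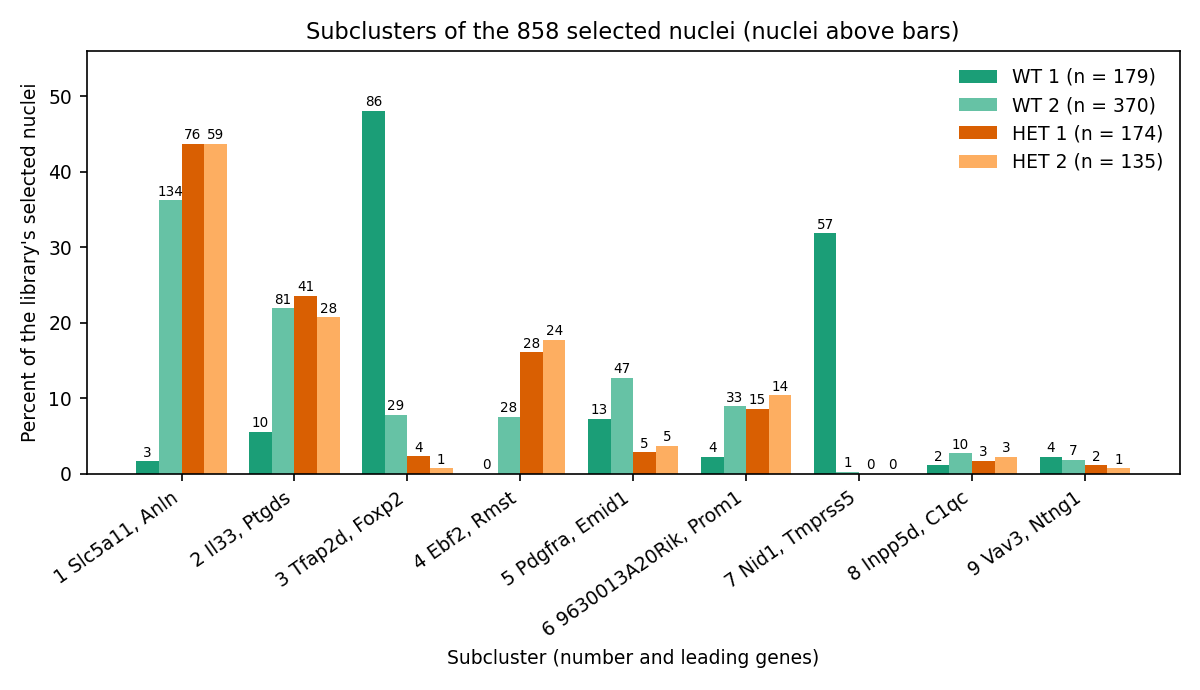
Share of each library's selected nuclei (vertical axis, percent, from 0) in each of the 9 subclusters (horizontal axis), with the number of nuclei above each bar. WT library 1 dominates subclusters 3 (86 nuclei) and 7 (57 nuclei) and is absent from subcluster 4, while the *Pdgfra* subcluster holds 13 and 47 WT nuclei and 5 and 5 HET nuclei.

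The *Pdgfra* subcluster was precursor-like: all 12 precursor markers reached the criterion, 9 of them outside the rule. Besides *Pdgfra* (752 CPM, against 4.93 CPM in the other members) its leading genes were *Emid1*, *Etv4*, *Megf11*, *Xylt1*, *Ptprz1*, *Mir9-3hg*, *Cspg4*, *Prrx1* and *Gm3764*. *Ptprz1* stood at 2289 CPM, *Xylt1*, which starts the sugar chains of proteoglycans, at 2244 CPM, and *Megf11*, a cell surface repulsion receptor, at 678 CPM, compared with 84.3, 81.4 and 20.1 CPM in the other members. *Etv4*, a transcription factor gene induced by growth factor signaling, was detected in 38.6% of its nuclei and *Emid1* in 44.3%. Mature genes were low, with *Mog* in 2.86% and *Mag* in 7.14% of nuclei. *Mki67*, a gene of dividing cells, was detected in 1.43% of its nuclei (1 UMI) at a median depth of 2173 UMIs and in 1.55% of the deeper reference neurons, and no cycling was read from it. Astrocyte markers were present too: 6 of 16 reached the criterion, and *Slc1a2*, the most abundant, stood at 362 CPM.

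By library the *Pdgfra* subcluster held 13 and 47 WT nuclei and 5 and 5 HET nuclei. These were 0.0807% (95% exact Clopper-Pearson interval 0.0430 to 0.138%) and 0.308% (0.227 to 0.410%) of the kept WT nuclei, and 0.0521% (0.0169 to 0.122%) and 0.0447% (0.0145 to 0.104%) of the HET nuclei. Both HET libraries were below both WT libraries, but the interval of WT library 1 overlapped those of both HET libraries, and the intervals cover counting error only. No test was made, since the subcluster was chosen after its nuclei were seen. *Pdgfra* was read from 18 and 98 UMIs in WT and 13 and 4 UMIs in HET, or 507, 839, 926 and 379 CPM in this order. *Ptprz1* stood at 2392 and 2114 CPM in WT versus 2848 and 3131 CPM in HET, and *Sox5* at 1295 and 1010 CPM in WT versus 1139 and 1802 CPM in HET. The genotypes overlapped for *Pdgfra* and *Sox5*, and *Ptprz1* was somewhat higher in both HET libraries, with 5 nuclei in each. *Mog* was found only in WT library 2 (15 UMIs in 2 nuclei, 128 CPM), and 3 counts, the limit that a count of 0 allows, would be 84.4 CPM in WT library 1 and 214 and 285 CPM in the HET libraries.

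The *9630013A20Rik* subcluster was newly formed oligodendrocyte-like, with 8 of 10 measured markers of that stage at the criterion, 5 of them outside the rule (*Itpr2*, *Fyn*, *Tcf7l2*, *Gpr17* and *Rras2*). It also met 5 of 10 mature markers and 4 of 12 precursor markers. *9630013A20Rik*, a long noncoding RNA gene, stood at 1195 CPM against 18.6 CPM in the other members, and *Prom1*, which encodes a membrane protein of progenitor cells, at 206 against 1.27 CPM. *Kank1*, *Man1a*, *Cnmd*, *Tcf7l1*, *Nckap5*, *Ust*, *Synpr* and *Cnksr3* followed. *Tcf7l2*, a transcription factor that promotes the step from precursor to myelin-forming cell, stood at 505 CPM and was at 136 CPM in the *Pdgfra* subcluster. *Mog* was detected in 71.2% of nuclei and *Opalin*, a late myelin gene, in 57.6%, so most nuclei had already turned on myelin genes.

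This second subcluster was uneven across libraries, with 4 and 33 WT nuclei and 15 and 14 HET nuclei. *9630013A20Rik* stood at 94.7 and 967 CPM in WT versus 1319 and 1676 CPM in HET. The low WT value came from a single UMI in 4 nuclei. *Enpp6* was read from 0 and 44 UMIs in WT and 18 and 2 in HET, and *Itpr2* from 0 and 74 UMIs in WT and 19 and 6 in HET. *Sox6* was at 0 UMIs in WT library 1 (3 counts would be 284 CPM), 1008 CPM in WT library 2 and 209 and 19.5 CPM in the HET libraries, while *Mog* was at 853 and 806 CPM in WT versus 1175 and 1481 CPM in HET, so both HET libraries were higher. *Enpp6*, *Itpr2* and *Sox6* were thus highest in WT library 2, *9630013A20Rik* was highest in HET library 2, and WT library 1 held only 10557 UMIs in all.

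**Figure D3:**
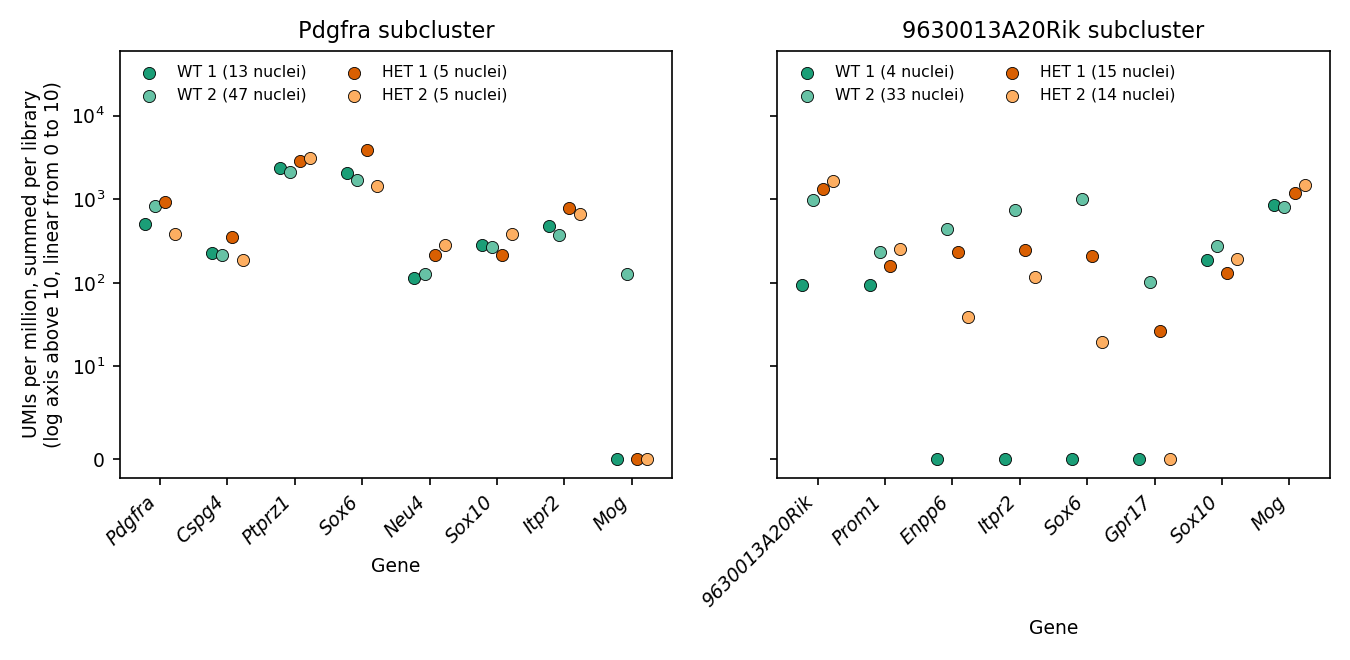
Level of 8 genes in each of the *Pdgfra* (left) and *9630013A20Rik* (right) subclusters; each point is 1 library (CPM over its summed nuclei, log axis above 10 and linear from 0 to 10). *Ptprz1* lies between 2114 and 3131 CPM in all libraries at left, and at right *Sox6* is at 0 UMIs in WT library 1 (3 counts would be 284 CPM), 1008 CPM in WT library 2, and 209 and 19.5 CPM in HET.

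The genes that separated the precursor-rule nuclei from the newly formed-rule nuclei were read as a description only, because the rules themselves split them. Of the 1303 genes that were higher in precursor-rule nuclei in all 4 libraries at no less than 50 CPM, the leading genes were *Gpc5* (mean over libraries 1020 against 26.5 CPM), *4930555F03Rik*, *Ebf1*, *Rmst*, *Unc13c*, *Gm26883*, *Tshz2*, *Rbms3*, *Nrg3os* and *Usp29*. *Unc13c* encodes a protein that primes synaptic vesicles, and *Rmst* is a long noncoding RNA gene of neuronal differentiation. Each of the 10 had a higher level in the reference neurons than in the mature reference, except *Ebf1* at 15.9 against 17.6 CPM. In the other direction 1145 genes met the rule, led by *Mog* (907 against 3.32 CPM), *St18*, *Sec14l5*, *A330049N07Rik*, *Prr5l*, *Mobp*, *Mbp*, *Mag*, *Ermn* and *Aspa*, which are genes of myelinating oligodendrocytes. None of these 20 genes is a marker of the precursor or newly formed stage in the lists used here.

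The share of kept nuclei that met either rule did not separate the genotypes. It was 1.11% and 2.43% in WT and 1.81% and 1.21% in HET, and the mean was 1.77% ± 0.930 (SD, n = 2) in WT and 1.51% ± 0.429 (SD, n = 2) in HET. The exact permutation test over libraries gave a two-sided p of 1, and with 2 libraries against 2 it cannot go below 0.33. The precursor rule alone was met by 0.608% and 0.590% of WT nuclei and 0.365% and 0.268% of HET nuclei, so both HET libraries were lower (exact permutation test, two-sided p = 0.33, the smallest possible). Most of these were the nuclei rich in neuron transcripts described above. The newly formed rule alone was met by 43.0% and 69.5% of WT members and 76.4% and 77.8% of HET members (exact permutation test, two-sided p = 0.33), a gap that shrank from 20.9 to 7.65 percentage points without WT library 1. In nuclei thinned to 1000 UMIs before the rule was applied, which left out 562, 480, 135 and 155 shallower nuclei by library, the shares that met either rule were 0.630% and 1.41% in WT and 0.730% and 0.517% in HET. Of the nuclei counted there, 56 of 98 and 73 of 208 in WT and 21 of 69 and 19 of 57 in HET were not members before thinning, since thinning also removes the excluding transcripts. Members themselves had a median of 1495 and 1370 genes in WT and 1420.5 and 1331 in HET, and 663, 667, 618 and 649 genes when thinned to 1000 UMIs.

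Over all members, counts summed per library called 67 of 4894 genes between genotypes at the study's threshold, an unadjusted p under 0.01 (1.37% of the genes tested), with 12 higher and 55 lower in HET. None passed an adjusted p under 0.05 in edgeR's quasi-likelihood test, where 407 had an unadjusted p under 0.05, and 5 passed in edgeR's likelihood-ratio test, which the study used. Without WT library 1 there were 210 calls (36 higher, 174 lower), of which 101 passed the adjustment, with the lone WT library assumed to vary like the HET pair. The count depended on each library: leaving out WT library 2 gave 965 calls (934 past the adjustment), and leaving out HET library 1 or 2 gave 11 or 19. Of the 55 genes lower in HET, 49 (89.1%) had a higher level in the reference neurons than in the mature reference, compared with 38.7% of the genes tested. Neuron markers moved with these calls: all 17 tested members of the neuron list had a negative change, with a median log2 fold change of -0.70 against -0.00 over all genes tested. Without WT library 1 the median was -0.18, and 11 of the 16 that could be fitted had a negative change. The part of neuron transcripts in the genotype difference was not tested.

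The gene with the smallest p was *Slc4a4*, a sodium bicarbonate cotransporter gene best known from astrocytes. Its level was 87.9 and 98.8 CPM in WT versus 15.9 and 19.3 CPM in HET (scaled by edgeR's TMM factors), a log2 fold change of -2.42 ± 0.34 (SE; edgeR quasi-likelihood test with Benjamini-Hochberg adjustment, adjusted p = 0.396, and 5.26e-07 to 0.996 over the alternatives). The counts were 45 and 94 UMIs in WT and 8 and 7 in HET. *Slc4a4* is in the astrocyte list, with a median log2 fold change of -1.19 over its 7 tested genes (-1.64 without WT library 1), and its part was not tested. *Sox5* was read at 303 and 295 CPM in WT versus 109 and 111 CPM in HET (log2 fold change -1.44 ± 0.24, edgeR adjusted p = 0.570, and 0.00446 in the likelihood-ratio test). Neurons transcribe *Sox5* too, as it stood at 427 CPM in the reference neurons, 81.2 CPM in the mature reference and 1125 CPM in the *Pdgfra* subcluster. *Ptprz1* was at 295 and 354 CPM in WT versus 139 and 144 CPM in HET (log2 fold change -1.20 ± 0.25, edgeR adjusted p = 0.570). The genotypes did not overlap for these 3 genes, as was the case for 41.8% of all genes tested. The *Pdgfra* subcluster made up 7.26% and 12.7% of WT members and 2.87% and 3.70% of HET members, and its part in these differences was not tested. When WT library 1 was left out, the log2 fold changes of *Slc4a4*, *Sox5* and *Ptprz1* were -2.49, -1.42 and -1.32. Other genes lower in HET by the smallest p were *Cacna2d3*, a calcium channel subunit gene, *Mcf2l*, *Galnt14*, *Kcnip3*, *Chd3* and *Lpp*, with log2 fold changes between -1.69 and -1.37.

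The genes higher in HET with the smallest p were *Ctps*, *Secisbp2l*, *Kif6*, *Gm16541*, *4930593A02Rik*, *Csf1*, *Kcna6*, *Jdp2*, *Zdhhc9* and *Prima1*, with log2 fold changes from 0.93 to 1.47 and no adjusted p below 0.570 by edgeR. *Csf1*, which encodes a ligand of the receptor whose gene is heterozygous here, was at 35.2 and 45.2 CPM in WT versus 97.4 and 74.6 CPM in HET (18, 43, 49 and 27 UMIs; log2 fold change 1.08 ± 0.31, and 0.95 without WT library 1). Its transcripts came mainly from the newly formed-rule nuclei, 19.6% of which held a UMI, against 1.58% of precursor-rule nuclei, 10.9% of mature and 4.06% of neuron reference nuclei. Within the newly formed-rule nuclei the *Csf1* difference was 0.66 ± 0.32 on the log2 scale (edgeR adjusted p = 0.689) and not called, with 91.6 and 64.5 CPM in WT versus 133 and 96.2 CPM in HET. *Kcna6*, a potassium channel gene, was at 58.6 and 70.4 CPM in WT versus 129 and 119 CPM in HET. *Csf1r* itself was read from 31 UMIs in all members (11.9 CPM), was below the detection filter and was not tested. It was detected in 2.33% of members, 3.51% of reference neurons and 44.4% of the microglia marker nuclei of subcluster 8.

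In the nuclei of the precursor rule alone, 46 of 6187 genes were called (0.743% of the genes tested), 21 higher and 25 lower in HET, with 325 at an unadjusted p under 0.05. Leaving out a library gave 161 calls (WT library 1), 76 (WT library 2), 97 (HET library 1) or 27 (HET library 2). *Ebf2*, a transcription factor gene of developing and mature neurons, alone passed the adjusted threshold in the quasi-likelihood test with all libraries (0.0162% of the genes tested), and 3 genes did in the likelihood-ratio test. It stood at 15.6 and 15.3 CPM in WT versus 160 and 154 CPM in HET (log2 fold change 3.30 ± 0.46, edgeR adjusted p = 0.0164; 3.32 on the log2 scale without WT library 1). The HET counts were 21 UMIs in 7 nuclei and 17 UMIs in 4 nuclei. The WT counts were 5 UMIs over 98 nuclei and 4 UMIs over 90 nuclei. *Ebf2* thus reached the filter of detection in 10% of the nuclei of a genotype through HET alone. Without that filter its adjusted p was 0.00897 by edgeR. *Ebf2* also led subcluster 4, which has no nucleus of WT library 1. The spread of these nuclei over the subclusters, which were made after scaling within each library, differed between libraries. Subcluster 4, all of the precursor rule alone, held 0 and 28 WT nuclei and 28 and 24 HET nuclei. Subcluster 3 held 86 and 29 WT nuclei and 4 and 1 HET nuclei. The part of this spread in the calls was not tested. The adjusted p of *Ebf2* by edgeR or DESeq2 ranged from 1.68e-07 to 0.999 over the alternatives. The adjusted p was 0.0926 by DESeq2, and in edgeR it was 0.207 without nuclei holding markers of other cell types, 0.0804 without HET library 1, 0.851 without HET library 2 and 0.999 after subtraction of free RNA. By the neuron markers that subtraction took free RNA to be 75.0 to 91.9% of these nuclei. It counts all neuron RNA as free, so in nuclei rich in neuron transcripts it cannot tell free RNA from their own. The subtraction cut their counts from 358354 and 289859 to 78512 and 56031 UMIs in WT. In HET it cut them from 141966 and 115356 to 36466 and 39387 UMIs, so few counts were left to test. *D130079A08Rik* and *Trpc7*, a cation channel gene, were also among the 10 leading genes of subcluster 4 and called higher in HET, at 2.25 ± 0.42 and 1.98 ± 0.53 on the log2 scale. *Zfp612*, *Foxj2*, *Tmem80*, *Gm37679*, *Nudt2*, *Rnpc3* and *Gm45904* completed the 10 with the smallest p, and all but *Gm37679*, *Rnpc3* and *Zfp612* rested on 10 or fewer UMIs in each HET library. Like *Ebf2*, *Trpc7*, *Foxj2*, *Tmem80*, *Nudt2* and *Gm45904* reached the detection filter through HET alone. Among genes lower in HET, *Slc4a4* and *Slc9a8* reached it through WT alone.

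Lower in HET precursor-rule nuclei were *Slc4a4* (112 and 188 CPM in WT, 15.2 and 36.2 CPM in HET), *Cacna2d3* (651 and 578 CPM in WT, 274 and 290 CPM in HET), *Vav3*, *Git2*, *Ptpn4*, *Rps29*, *Slc9a8*, *Tln2*, *Cacnb4* and *Kcnc2*. Their log2 fold changes ran from -2.69 to -0.74, and none passed the adjusted threshold in edgeR's quasi-likelihood test. In the likelihood-ratio test *Slc4a4* did (edgeR adjusted p = 0.0144, and 0.000359 to 0.99997 over the alternatives). For *Slc4a4* and *Cacna2d3* the log2 fold changes were -2.85 and -1.01 without WT library 1. *Cacna2d3*, *Cacnb4* and *Kcnc2* encode parts of calcium and potassium channels, and *Cacna2d3* and *Kcnc2* stood at 963 and 621 CPM in the reference neurons and at 178 and 136 CPM in the mature reference. *Sox5* was also called lower (374 and 494 CPM in WT, 191 and 272 CPM in HET, log2 fold change -0.91 ± 0.27, edgeR adjusted p = 0.893). *Ptprz1* was not called, with 346 and 727 CPM in WT versus 312 and 426 CPM in HET, so that WT library 1 overlapped the HET libraries.

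In the nuclei of the newly formed rule alone, 115 of 4263 genes were called (2.70% of the genes tested), 7 higher (0.164%) and 108 lower (2.53%) in HET, and none passed the adjustment in edgeR's quasi-likelihood test, where 323 genes had an unadjusted p under 0.05. In the likelihood-ratio test 40 passed it, without nuclei holding markers of other cell types 14, and under a stricter rule of 5 UMIs and 3 genes 5. Without WT library 1 there were 119 calls, and without HET library 1 only 11. The 10 genes lower in HET with the smallest p were *Cntnap2*, *Fam19a1*, *Lrrc7*, *Fam19a2*, *Dlgap1*, *Rgs6*, *Ntrk3*, *Snhg11*, *Gria1* and *Sox5*. *Cntnap2*, which encodes an axonal adhesion protein, was at 1013 and 753 CPM in WT versus 293 and 397 CPM in HET (log2 fold change -1.35 ± 0.25, edgeR adjusted p = 0.155, 0.00266 in the likelihood-ratio test and up to 0.992 over the alternatives), and at 3825 CPM in the reference neurons. Its change without WT library 1 was -1.13. *Lrrc7* and *Dlgap1* encode scaffold proteins of the synapse, and *Snhg11* is a long noncoding RNA gene of neurons. Of the 108 genes lower in HET, 82.4% were higher in the reference neurons than in the mature reference, against 30.1% of the genes tested. The 20 neuron markers summed to 10258 and 8901 CPM in WT versus 5241 and 7812 CPM in HET newly formed-rule nuclei. The genotypes did not overlap for this sum, as was the case for 35.5% of the single genes tested. Across the same markers the level relative to all nuclei of the library was 18.1% and 18.3% in WT and 7.78% and 11.6% in HET, and subtracting that amount of free RNA left 18 calls. How much of the genotype difference is free neuron RNA was not tested beyond this subtraction.

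Genes higher in HET newly formed-rule nuclei included *Kirrel3*, *Sytl5*, *Synpr*, *Ctps*, *Fam214a* and *4930593A02Rik*. *Kirrel3*, an adhesion gene, was at 717 and 902 CPM in WT versus 1360 and 1486 CPM in HET (log2 fold change 0.80 ± 0.21, edgeR adjusted p = 0.253). *Ctps*, which makes the cytidine nucleotide used in phospholipid synthesis, was at 43.1 and 32.3 CPM in WT versus 63.6 and 127 CPM in HET. *Kirrel3* had a log2 fold change of 0.66 without WT library 1. No myelin gene was called: *Mbp* was at 3498 and 4577 CPM in WT versus 5422 and 5251 CPM in HET (log2 fold change 0.40 ± 0.19, edgeR adjusted p = 0.689), or 0.23 on the log2 scale without WT library 1. *Mog* was at 960 and 979 CPM in WT versus 1086 and 1039 CPM in HET.

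**Figure D4:**
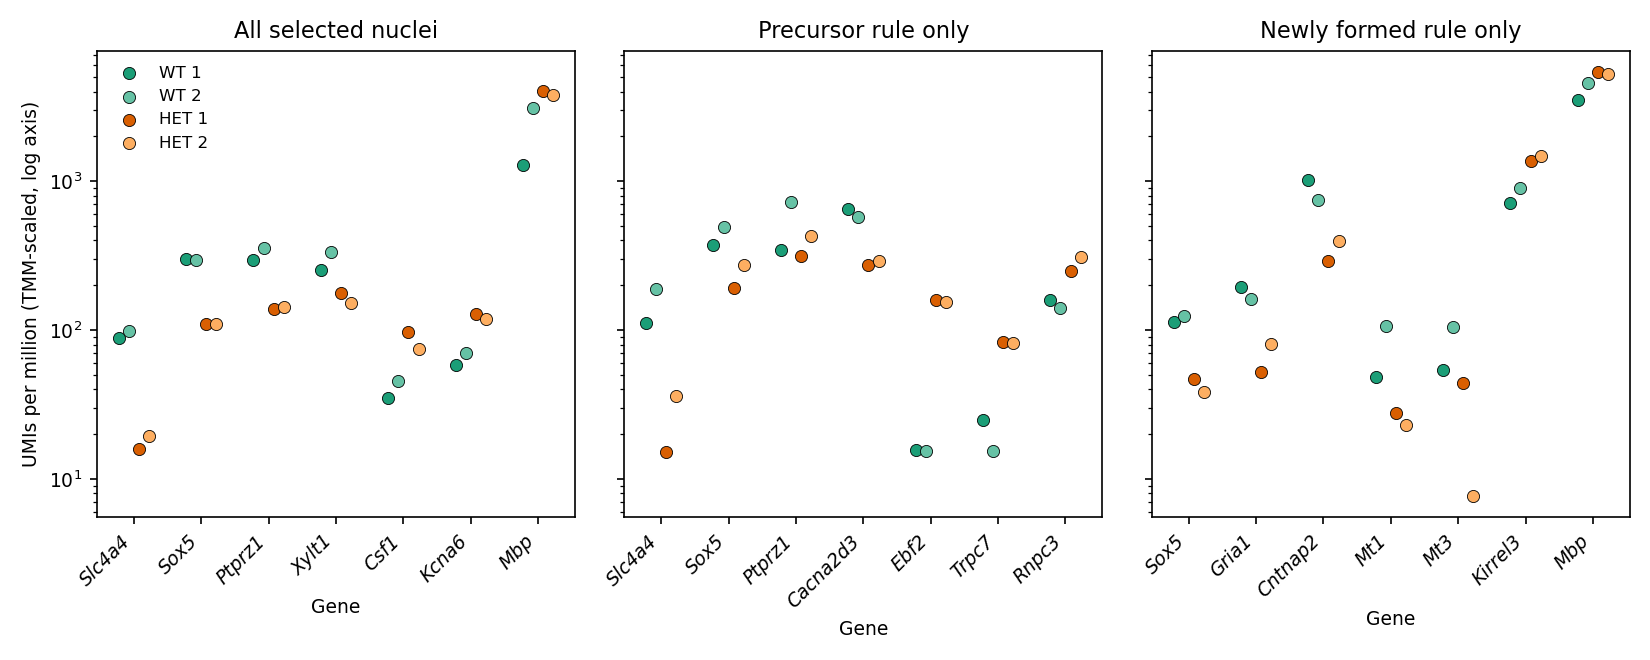
Level of selected genes in all selected nuclei (left), the precursor rule alone (middle) and the newly formed rule alone (right); each point is 1 library (CPM, TMM-scaled, log axis), WT in green and HET in orange. *Slc4a4* lies at 87.9 and 98.8 CPM in WT versus 15.9 and 19.3 CPM in HET at left, *Ebf2* at 15 to 16 CPM in WT and 154 to 160 CPM in HET in the middle, and *Cntnap2* at 753 to 1013 CPM in WT and 293 to 397 CPM in HET at right.

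Gene groups of the lineage were read by counts. Of 35 other precursor genes 21 were tested over all members; 17 had a negative change, the median log2 fold change was -0.54, and *Sox5* and *Ptprz1* were called lower (background 1.12% lower). The most abundant, *Kcnd2*, *Pcdh15*, *Dscam* and *Tnr*, had log2 fold changes of -0.57, -0.54, -0.87 and -0.76 and were not called. All 28 tested mature oligodendrocyte genes had a positive change, with a median of 0.63, and none was called. *Mbp*, *St18* and *Dock10* were at 0.82, 0.81 and 0.76 on the log2 scale. In the newly formed-rule nuclei the medians of these groups were -0.39 over 17 and 0.21 over 28 tested genes, and 2 genes of the first (background 2.53% lower) and none of the second were called. Without WT library 1 the medians of the precursor and mature groups were -0.31 and 0.20 over all members, where 18 of 21 had a negative and 24 of 28 a positive change, and stood at -0.38 and 0.12 in the newly formed-rule nuclei. The make-up of the members differed as well, since nuclei of the newly formed rule alone were 43.0% of members in WT library 1 and 69.5 to 77.8% in the other libraries.

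Ion channels and transmitter receptors stood out in the newly formed-rule nuclei, where 9 of 25 tested genes were called lower (background 2.53%) and 22 had a negative change. The called genes included *Gria1*, *Gria2*, *Gria3*, *Grin2a*, *Grin2b*, *Grm5*, *Gabra2* and *Cacna1d*, which encode glutamate and GABA receptors and a calcium channel and are also abundant in neurons. *Gria2* was at 442 and 460 CPM in WT versus 249 and 250 CPM in HET (log2 fold change -0.86 ± 0.23, edgeR adjusted p = 0.252), and the group's median of -0.76 was -0.68 without WT library 1. Among 37 tested adhesion and matrix genes 5 were called lower (among them *Nrxn3*, *Nrcam*, *Ntm* and *Csmd1*), with a median of -0.24 over the group. Of the 14 tested neuron markers 7 were called lower in the same nuclei, with a median of -0.83 (-0.59 without WT library 1). The share of this in the receptor genes was not tested. Over all members 31 genes of the channel and receptor group were tested, of which 1 was called higher and 2 lower (background 0.245% and 1.12%). The group's median there was -0.66, or -0.20 without WT library 1. In the precursor-rule nuclei the group's median was -0.06, or 0.07 without WT library 1.

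The study singled out metallothioneins, which bind zinc and copper, so its own choice makes the group no independent evidence here. In newly formed-rule nuclei *Mt1* was at 48.5 and 106 CPM in WT versus 27.6 and 23.1 CPM in HET (9, 66, 10 and 6 UMIs; log2 fold change -1.75 ± 0.45, edgeR adjusted p = 0.232). *Mt3* was at 53.9 and 105 CPM in WT versus 44.2 and 7.70 CPM in HET (10, 65, 16 and 2 UMIs; log2 fold change -1.61 ± 0.52, edgeR adjusted p = 0.346). Both were called lower, and they were the called members of 11 tested genes of metal binding and transport, whose median change was 0.00, or -0.24 without WT library 1 (background 2.53% lower). The log2 fold changes of *Mt1* and *Mt3* were -2.03 and -1.86 without WT library 1. Over all members neither was called, nor in the precursor-rule nuclei. The 16 astrocyte markers, from cells rich in *Mt1* and *Mt3*, summed to 426 and 675 CPM in WT versus 363 and 332 CPM in HET in the newly formed-rule nuclei, and their part was not tested.

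The remaining groups gave few or no calls. None of the 8 tested cholesterol synthesis genes, 8 integrated stress response genes and 3 cell cycle genes was called over all members, with medians of 0.19, 0.05 and 0.44 (0.27, 0.00 and 0.10 without WT library 1). Of 22 lineage transcription factor genes only *Sox5* was called, and of 26 genes of growth factor and differentiation signaling *Ptprz1* and *Nrp1*, all lower in HET (background 1.12% lower). *Erbb4*, a neuregulin receptor gene, was at 2213 and 2591 CPM in WT versus 2256 and 2477 CPM in HET over all members. In the precursor-rule nuclei it was called lower, at 2145 and 2445 CPM in WT versus 1326 and 1658 CPM in HET (log2 fold change -0.62 ± 0.20, edgeR adjusted p = 0.893; -0.69 without WT library 1), against a background of 0.404% lower. No genotype call was made over all members among the 20 tested differentiation-stage genes, whose median was 0.19, or 0.02 without WT library 1 with 10 positive and 10 negative changes.

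Membership asked for no UMI of *Vtn*, *Rgs5* or *Flt1*, so the low level of other endothelial and mural markers is a description of the selection. In the precursor-rule nuclei the 12 endothelial genes summed to 38.7 CPM, led by *Tek*, with *Slco1a4* and *Cdh5* at 0, and 9 mural genes to 15.5 CPM with 7 at 0. Vascular leptomeningeal genes summed to 123 CPM there, led by *Bnc2*, and to 12.6 CPM in the newly formed-rule nuclei. Microglia genes summed to 187 CPM and to 459 CPM in the same 2 sets, and were highest in HET library 2 of the newly formed-rule nuclei (852 CPM, against 204, 449 and 332 CPM). Neuroblast genes, led by *Dcx*, summed to 161 and 42.1 CPM, and ependymal and choroid genes to 49.7 and 24.5 CPM.

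The genotype change of the members was tested against that of the mature reference nuclei from the same libraries, with the library as a block. Of 4911 genes 19 were called for a difference between the 2 changes (0.387% of the genes tested), 17 of them with a change in the members above that in the mature nuclei, and none passed the adjustment in edgeR's quasi-likelihood test with all libraries, where 156 had an unadjusted p under 0.05. The direction turned after subtraction of free RNA, with 3 of 33 calls above and 30 below the change in the mature nuclei. That subtraction also takes neuron RNA of the members' own, so it cannot show how free RNA bears on the direction. Without high Scrublet scores 5 of 10 calls were above and 5 below, and under stricter membership 16 of 30 were above and 14 below. Leaving out WT library 1 or 2 gave 160 or 240 calls (64 or 116 past the adjustment), and leaving out HET library 1 gave 41. The smallest p values belonged to *Plgrkt* (difference of log2 changes 3.58 ± 0.72, edgeR adjusted p = 0.997, 0.0200 in the likelihood-ratio test and 0.000982 to 1 over the alternatives), *Rmst* (1.65 ± 0.42), *Hps3*, *Gpr45*, *Sptbn4*, *Rapgef4*, *Fam214a* and *Fstl5*, with *Atp5f1* and *Gm38505* in the opposite direction. *Rmst* was at 482 and 210 CPM in WT versus 258 and 277 CPM in HET members, and at 108 and 83.5 CPM in WT versus 28.1 and 23.2 CPM in HET mature nuclei. In the members the genotypes overlapped for *Rmst*, and the value of WT library 2 was below those of both HET libraries. In the mature nuclei the neuron markers stood at 24.7% and 26.0% of their level in all nuclei in WT and at 9.53% and 12.3% in HET. *Sox5*, *Ptprz1* and *Slc4a4* were not called in this test, with differences of -0.84, 0.31 and -1.15, so their change in the members was not shown to differ from that in mature oligodendrocytes.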

How the data were processed

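The authors counted UMIs with Cell Ranger 5.0.0 against mm10; the deposited counts are raw UMI numbers for each gene in each called nucleus. The study's filters (500 to 50000 UMIs, over 200 genes, mitochondrial share below 5%) kept most nuclei (16114, 15247, 9589 and 11182 by library, with medians of 5490, 4636, 7454 and 6656 UMIs). The members and all lists were chosen with earlier results of these data known. Doublets were not removed, except in the Scrublet alternative. Members were clustered without the rule genes and centred per library (scanpy 1.11.5, leidenalg 0.10.2, 1000 variable genes, resolution 0.5), and the marker criterion was set after the clusters were seen. Counts were summed per library (members: 580405, 1051451, 575335 and 401588 UMIs). Genes detected in 10% or more of the nuclei from one genotype, with 10 counts or more in total, were tested with edgeR 4.0.16 under R 4.3.3 (TMM, quasi-likelihood, two-sided, Benjamini-Hochberg). The rule genes were left out of the calls. DESeq2 1.42.0 was an alternative. Tests were tested on simulated data. Named genes are the 10 with the smallest p per direction and comparison, the rule genes, the 4 most abundant of each lineage list, and the leading genes of stages and subclusters. Genes named in other places were chosen after their values were seen. A few genes that the rule names are not reported here.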

Additional observations from a re-analysis of the deposited data

How the results depend on the processing

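The HET minus WT difference in the share of kept nuclei was -0.26 percentage points with all libraries and -0.92 to 0.40 when a library was left out. Without WT library 1 both HET libraries were lower than the remaining WT library, and without WT library 2 both were higher. The newly formed share differed by 7.65 to 34.1 points (20.9 with all) and by 44.5 points under stricter membership (5 UMIs and 3 genes). Counts of calls depended on the setting, and the cause was not tested. The subtraction of free RNA counts all neuron RNA as free, also that of the nuclei themselves. Over all members, 67 became 143 with edgeR's likelihood-ratio test, 115 without the detection filter, 265 under stricter membership, 38 without nuclei holding markers of other cell types, 34 after subtraction of free RNA, and 11 to 965 without a library. In precursor-rule nuclei, 46 became 88 with the likelihood-ratio test, 4 with DESeq2, 75 without high Scrublet scores, 9 under stricter membership, 19 after subtraction, and 27 to 161 without a library. In newly formed-rule nuclei, 115 became 32 with DESeq2, 177 without the detection filter, 75 under stricter membership, 18 after subtraction, and 11 to 148 without a library. For members against mature nuclei, 19 became 38 with the likelihood-ratio test, 2 with DESeq2, 85 without the detection filter, 10 without high Scrublet scores, 30 under stricter membership, 9 without nuclei holding other markers, 33 after subtraction (30 of them below the mature change), and 28 to 240 without a library. Of the genes named by smallest p, *Zfp612* alone changed sign (-0.24 under stricter membership) in the settings where a gene had a value. Under stricter membership 12 of the 20 genes named in precursor-rule nuclei had one, and *Ebf2* did not.

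The labels give both genotypes replicate numbers 1 and 2, but nothing says that a number marks a shared litter or day, and the differences between replicates of WT and HET correlated across genes at -0.10 in all members, 0.05 in precursor-rule and 0.05 in newly formed-rule nuclei. With a replicate block there were 138, 98 and 141 calls in these sets, and 2, 5 and 28 genes passed the adjusted threshold in edgeR, against 0, 1 and 0 without the block. In precursor-rule nuclei *Slc4a4* and *Cacna2d3* were among them (adjusted p = 0.00172 and 0.0209 by edgeR). The crossed pairing, added after seeing the data, gave 290 calls in all members, 63 of them past the adjustment. Thinning before the rule was also added then. Some calls in precursor-rule nuclei rest on few UMIs, among them *Foxj2*, *Tmem80* and *Nudt2*.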
